A study of Canis lupus familiaris with 4 samples.

Results

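Elastic fibre and microfibril transcripts were examined in mesenchymal stromal cells grown from canine adipose tissue. The genes were picked by symbol from the deposited table: elastin (ELN), the fibrillins FBN1 and FBN2, the fibulins FBLN1, FBLN2, FBLN5, EFEMP1 and EFEMP2, and the microfibril-associated glycoproteins MFAP2 and MFAP5. All 10 were found, each in 1 row, among the 30951 genes of the table. ELN and FBN2 had been picked for their spread between cultures as well as for their role, so their levels and spread are described without a test, and the tests cover the other 8 genes.

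The study sequenced total RNA of 4 primary cultures, 1 per dog, and all 4 belong to 1 group of untreated cells kept for 48 h in medium with 10% fetal bovine serum. The labels give no breed, age, sex or passage, and with 1 library per dog a difference between dogs cannot be told apart from a difference between cultures or libraries. In bulk RNA, fewer cells of a type and less RNA per cell cannot be told apart either. No condition was compared with another, so the yardstick for every gene is the typical detected gene of the same library (the median), with the variation over the 4 dogs as error.

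An elastic fibre has a core of cross-linked elastin laid on a scaffold of microfibrils, which are built from fibrillin. Fibulins and microfibril-associated glycoproteins bind to this scaffold or bring elastin and its cross-linking enzymes to it. Stromal cells and smooth muscle cells are known sources of these proteins, and microfibrils also store growth factors of the TGF-beta family.

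The 4 libraries held 22411268, 16246965, 15203607 and 7474011 reads in dogs 1 to 4, so dog 4 is the shallowest. The libraries were not duplicates of each other: chi-square per degree of freedom of their reads over genes was 43.5 for the closest pair (dogs 2 and 3). Of 9 mesenchymal stromal markers 8 were above the median detected gene and NT5E was below. By the same level test, described further on, 33.3% of all detected genes were above and 35.8% below. No measured endothelial, leukocyte, adipocyte, chondrocyte, epithelial or mesothelial marker was above on the mean of 4 dogs. PECAM1, EMCN, CD3E, MS4A1, AIF1, CIDEC and CDH1 had 0 reads. Not measured were 1 of 8 leukocyte, 2 of 7 adipocyte and 3 of 8 epithelial and mesothelial markers. A mean can hide a single culture: KRT18 stood 2.60 log2 units over the median detected gene in dog 4. Other markers stood less far over it. PPARG was at 1.17, 1.17 and 1.12 in dogs 1 to 3. WT1 was at 1.00 in dog 3, VWF at 0.89 in dog 1 and CSF1R at 0.88 in dog 3. Of 10 smooth muscle and pericyte markers 7 were above, RGS5 had 0 reads and DES had 3 and 4 reads in dogs 3 and 4 and none in dogs 1 and 2. Their summed normalized reads were 72714, 50288.5, 35129 and 161306 in dogs 1 to 4. In dog 4 most of this sum was ACTA2, TAGLN and MYLK (66731.5, 44821.6 and 38320). CSPG4 and SMTN were highest in dog 2 instead, and the other detected markers of this list in dog 4. The sum of the mesenchymal stromal markers was lowest in dog 4.

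Levels below are log2 values relative to the median detected gene, as mean ± SD over 4 dogs. Normalized reads are reads divided by the size factor of the library. No transcript lengths were used, so values compare a gene with itself between dogs and should not rank long against short genes. Levels and calls against the median detected gene, and shares of reads, carry transcript length as well as abundance. The 10 genes together took 0.647%, 0.671%, 0.782% and 0.502% of the reads in dogs 1 to 4. FBN1 and FBLN2 alone made up between 85.4% and 92.2% of these reads.

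By a test against a distance of 1 log2 unit (limma, Benjamini-Hochberg adjusted over all detected genes), 6 of the 8 tested genes were above the median detected gene. None was below, and FBLN5 and MFAP2 were neither. By the same test 33.3% of all 17200 detected genes were above and 35.8% below. The median level of the 10 genes was 3.12, and of the 8 tested genes 3.19, beside -0.02 for all detected genes.

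ELN encodes tropoelastin, the soluble precursor of the elastic core. It had 1670.1, 314.7, 4193 and 1475 normalized reads in dogs 1 to 4, from 2325, 341, 4392 and 680 reads. Dog 3 was highest and dog 2 lowest, 13.3-fold apart, with dogs 1 and 4 between them. The level was 3.10 ± 1.51 (SD, n = 4). Without dog 2 the SD was 0.81, so much of the spread lay between dog 2 and the rest. Counting error was small beside these differences: the exact 95% Poisson interval was 282 to 349.9 normalized reads in dog 2 and 4070 to 4319 in dog 3.

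FBN1 encodes fibrillin-1, the main fibrillin of adult microfibrils. It had 70233, 69553, 80653 and 53988.5 normalized reads in dogs 1 to 4, a 1.49-fold range. The level was 8.73 ± 0.23 (limma adjusted p = 4.0e-09, above in 4 of 4 dogs), with dog 3 highest and dog 4 lowest. The counting intervals of dogs 1 and 2 overlapped, though overlap is no test of their difference. Without dog 4 the SD was 0.12.

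FBN2 encodes fibrillin-2, known mostly from developing and regenerating tissue. It had 223, 371, 3298 and 995 normalized reads in dogs 1 to 4, from 311, 402, 3455 and 459 reads. Dog 3 was again highest, 14.8-fold over dog 1, and dog 4 was second. The level was 2.24 ± 1.66, and it was 1.35 with an SD of 1.06 without dog 3. FBN2 minus FBN1 was -8.17, -7.47, -4.60 and -5.73 log2 units in dogs 1 to 4. This difference spanned 3.57 log2 units between dogs and FBN1 alone 0.56, which follows from the choice of FBN2 for its spread.

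The remaining fibrillin gene, FBN3, was near the floor, with 1, 7, 95 and 0 reads in dogs 1 to 4. Dog 3, highest for FBN2, also held most of these reads. FBN3 was below the median detected gene at -2.73 ± 1.52 (limma adjusted p = 0.0050).

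**Figure D1:**
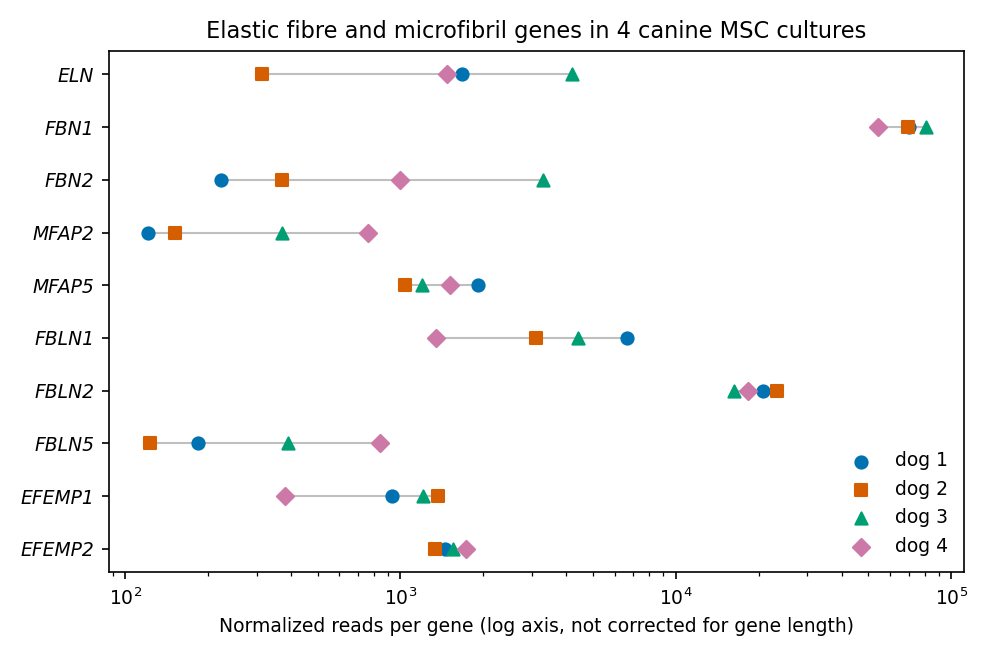
Normalized reads of the 10 genes in each of the 4 cultures on a log axis, 1 symbol per dog, with a grey line over the range of each gene. ELN and FBN2 spread more than 13-fold, from 315 to 4193 and from 223 to 3298, while the symbols of FBN1, FBLN2 and EFEMP2 lie close together.

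MFAP2 and MFAP5 encode the microfibril-associated glycoproteins MAGP-1 and MAGP-2, small proteins that bind fibrillin. MFAP2 had 121, 152, 372 and 763 normalized reads in dogs 1 to 4, highest in dog 4. Dogs 1 and 2 had overlapping counting intervals, and both lay below dogs 3 and 4. The level was 0.88 ± 1.14 and did not pass the test (adjusted p = 0.79 by limma, above the median detected gene in 3 of 4 dogs).

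MFAP5 had 1914, 1039, 1195 and 1516 normalized reads in dogs 1 to 4, a 1.84-fold range, with dog 1 highest and dog 2 lowest. Its level of 3.13 ± 0.39 was above the median detected gene (limma adjusted p = 6.0e-07). In the RefSeq annotation of another dog assembly MFAP5 overlaps the gene RIMKLB, which had 13, 3, 7 and 0 reads in dogs 1 to 4. In that annotation FBN1 overlaps 1 non-coding gene and EFEMP1 overlaps 3, and their reads were not separated here. MFAP2 minus MFAP5 was -3.78, -2.62, -1.63 and -0.97 log2 units in dogs 1 to 4, so the balance of the pair differed by 2.81 log2 units between dogs 1 and 4.

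FBLN5 encodes fibulin-5, which binds tropoelastin and tethers it to microfibrils and integrins. It had 184, 123, 391 and 844 normalized reads in dogs 1 to 4. Dog 4 was highest and dog 2 lowest, 6.87-fold apart, and no counting intervals of neighbouring dogs overlapped. The level of 1.00 ± 1.15 did not pass the test (limma adjusted p = 0.64). The orders for FBLN5 and MFAP2 were alike at the top, with dog 4 first and dog 3 second in both.

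EFEMP2 encodes fibulin-4, which is needed for elastin cross-linking because it carries lysyl oxidase to tropoelastin. It was the steadiest of the 10 genes. Dogs 1 to 4 had 1453, 1329.7, 1554 and 1724 normalized reads. The range was 1.30-fold, and all 3 pairs of neighbouring dogs had overlapping counting intervals. The level was 3.26 ± 0.16, above the median detected gene in 4 of 4 dogs (limma adjusted p = 4.1e-08).

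EFEMP1 encodes fibulin-3, a matrix glycoprotein of connective tissue and basement membranes. It had 928, 1371, 1204 and 382 normalized reads in dogs 1 to 4. Dogs 1 to 3 lay close together and dog 4 was lowest, 3.59-fold under dog 2. The level was 2.49 ± 0.80 (limma adjusted p = 0.00020), and without dog 4 the SD was 0.27.

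FBLN1 encodes fibulin-1, a calcium-binding protein of elastic fibres and basement membranes. It had 6670.4, 3098, 4418 and 1345 normalized reads in dogs 1 to 4. Dog 1 was highest and dog 4 lowest, 4.96-fold apart. The level was 4.39 ± 0.97 (limma adjusted p = 2.6e-06), and the SD was 0.56 without dog 4.

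FBLN2 encodes fibulin-2, which binds fibrillin and fibronectin. It had 20767, 23248.5, 16227 and 18277 normalized reads in dogs 1 to 4, a 1.43-fold range with dog 2 highest and dog 3 lowest. The level was 6.93 ± 0.23 (limma adjusted p = 4.0e-09).

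Within the fibulins the balance of reads also differed between dogs. FBLN1 minus FBLN2 was -1.64, -2.90, -1.87 and -3.74 log2 units in dogs 1 to 4, with a mean of -2.54 ± 0.97. EFEMP1 minus EFEMP2 was -0.64, 0.04, -0.36 and -2.12, with a mean of -0.77 ± 0.94, and of -0.32 ± 0.34 without dog 4. FBLN5 minus FBLN1 was -5.04 in dog 1, -4.45 in dog 2, -3.43 in dog 3 and -0.66 in dog 4. When signs were flipped over dogs (exact permutation test, two-sided), FBLN1 minus FBLN2 and MFAP2 minus MFAP5 reached the limit of this design, 2 of the 16 sign patterns (p = 0.19 after Benjamini-Hochberg adjustment over 3 pairs). The exact test gave p = 0.25 for EFEMP1 minus EFEMP2 (adjusted 0.25). With 4 dogs no pair could pass 0.05, and these means carry the lengths of the transcripts as well as their abundance.

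No culture was highest or lowest for all 10 genes. Dog 3 was highest for ELN, FBN1 and FBN2, dog 4 for FBLN5, EFEMP2 and MFAP2, dog 1 for FBLN1 and MFAP5, and dog 2 for FBLN2 and EFEMP1. Dog 4 was lowest for FBN1, FBLN1 and EFEMP1, and dog 2 was lowest for ELN, FBLN5, EFEMP2 and MFAP5. ELN and FBN2, both highest in dog 3, had been picked partly for their spread. Across all detected genes dogs 1 to 4 were highest in 22.4%, 17.4%, 23.4% and 36.8%. They were lowest in 19.7%, 20.3%, 31.1% and 28.8%. Dog 4 also had the fewest reads and the highest summed smooth muscle and pericyte markers. Its 435 reads of the epithelial marker KRT18 stood beside 9, 9 and 25 in dogs 1 to 3. The rest of that list did not follow KRT18. WT1 had 148, 91, 317 and 0 reads in dogs 1 to 4, and UPK3B 20, 13, 3 and 0. EPCAM and CDH1 also had 0 reads in dog 4. The part of depth and of these markers in the values of dog 4 was not tested. No member had a library apart from the other 3 by Dixon's criterion, which 5.36% of all detected genes met.

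**Figure D2:**
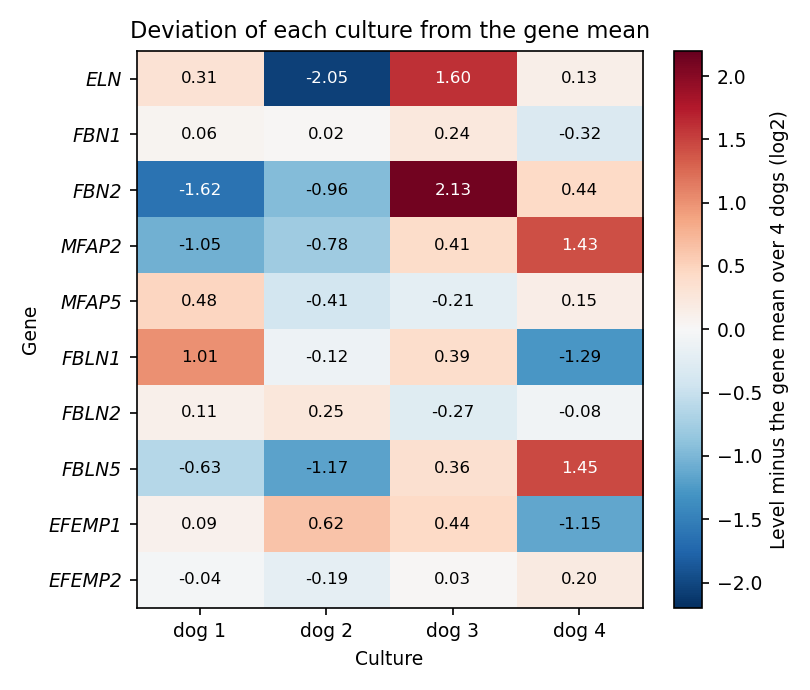
Level of each gene in each culture minus the gene's mean over the 4 dogs, in log2 units, as colour and number, with genes in rows and cultures in columns. FBN2 and ELN reach 2.13 and 1.60 in dog 3, ELN is at -2.05 in dog 2, and dog 4 is high for MFAP2 and FBLN5 and low for FBLN1 and EFEMP1.

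The spread between dogs differed widely among the genes. The SD was 0.16 for EFEMP2, 0.23 for FBN1, 0.23 for FBLN2 and 0.39 for MFAP5. It was 0.80 for EFEMP1 and 0.97 for FBLN1, just under 1 log2 unit. FBLN5 and MFAP2, at 1.15 and 1.14, were over it, as 2 of the 8 tested genes. By comparison 3.55% of all detected genes had an SD above 1, as did 2.05% of the 8555 detected genes with a mean level above the median.

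None of the 8 passed an F test of variance against the limma prior trend (smallest adjusted p = 0.34 by Benjamini-Hochberg, for FBLN1), and neither did any other gene of the table (0% of 17200). At an unadjusted p under 0.05 there were 4 of the 8, namely FBLN1, FBLN5, MFAP2 and EFEMP1, beside 5.20% of all genes tested (895 genes). Without dog 4 the SDs of FBLN5 and MFAP2 were both 0.78, and their levels 0.28 and 0.17.

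**Figure D3:**
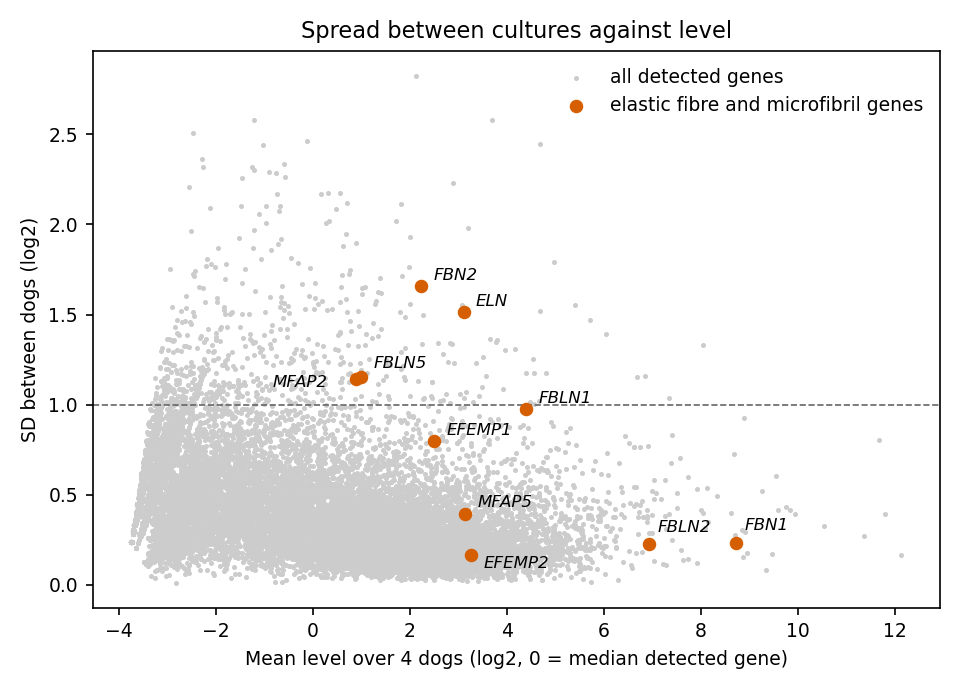
SD between the 4 dogs against mean level for the 17200 detected genes (grey) and the 10 elastic fibre and microfibril genes (orange), both in log2 units, with a dashed line at an SD of 1. ELN, FBN2, FBLN5 and MFAP2 lie over the line and FBLN1 just under it at 0.97, while FBN1 and FBLN2 lie low at high levels.

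The genes whose profile over the 4 dogs was nearest to those of ELN and FBN2 were sought across the table. Likeness was the Euclidean distance between deviations from the gene mean (log2) among 9686 named genes with at least 50 normalized reads on average, and is given as a description over 4 libraries. Nearest to ELN were IGFBP5 (0.77), ABLIM1 (0.93), TM4SF1 (0.98), LIPG (1.10) and GAS7 (1.12). IGFBP5, which encodes a binding protein of insulin-like growth factors, had 3943, 650.5, 4860.0 and 2971 normalized reads in dogs 1 to 4. Like ELN, it was lowest in dog 2 and highest in dog 3. Nearest to FBN2 were PTPRB (0.69), PTGDR (1.23), LGR4 (1.27), SV2C (1.32) and DNM1 (1.34). PTPRB, which encodes a receptor tyrosine phosphatase, had 51.7, 76.6, 1079.7 and 457.6 normalized reads in dogs 1 to 4. Among the other 9 elastic fibre and microfibril genes, far fewer than the candidates searched, the smallest distance was 2.22 for ELN (to FBLN5) and 2.07 for FBN2 (to MFAP2).

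Genes that build, process, bind or degrade elastic fibres were taken from 8 lists. Of 80 measured genes 70 were detected, and of these the level test placed 48 above, 11 below and 11 in neither class, beside 33.3% above and 35.8% below among all detected genes. The counts of the single lists that follow are read against the same shares. Leaving out 1 dog at a time gave 45 to 47 above and 9 to 13 below. Their median level was 2.65 and their median SD 0.46, beside an SD of 0.36 for all detected genes.

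All 7 cross-linking enzymes and chaperones of elastin and collagen were above. The lysyl oxidases cross-link elastin and collagen: LOXL2 stood at 8.08 ± 0.31, LOXL4 at 3.48 ± 1.10 and LOXL3 at 3.23 ± 0.68. LOXL4 was higher in dogs 1 and 2 (2829.5 and 3801 normalized reads) than in dogs 3 and 4 (704.5 and 1251). The collagen chaperone SERPINH1 stood at 7.93 ± 0.12 and FKBP10, whose product also binds tropoelastin, at 6.03 ± 0.16.

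Latent TGF-beta binding proteins attach to fibrillin. Of 9 genes of these proteins and of TGF-beta family ligands 7 were above, namely LTBP1, LTBP2, LTBP3, LTBP4, TGFB1, TGFB2 and TGFB3. The other 2, GDF5 and BMP7, were not detected. LTBP2 stood at 7.51 ± 0.43, LTBP1 at 6.51 ± 0.79, LTBP3 at 3.60 ± 0.32, TGFB1 at 2.16 ± 0.29 and LTBP4 at 1.58 ± 0.69. LTBP4, which takes part in elastic fibre assembly with fibulin-5, lost its call without dog 2 (1.41), 3 (1.17) or 4 (1.20). LTBP1 had 15909, 9729, 9595 and 30144 normalized reads in dogs 1 to 4, highest in dog 4.

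Of 16 other fibre-associated genes 5 were above, 2 below, 6 neither and 3 not detected. Versican (VCAN), a fibrillin-binding proteoglycan, stood at 8.67 ± 0.72, decorin (DCN) at 8.0 ± 0.42 and biglycan (BGN) at 7.50 ± 0.51. EMILIN3, a relative of the elastin-microfibril interface protein EMILIN1, stood below at -3.62 ± 0.45. Its reads numbered 1, 0, 5 and 0 in dogs 1 to 4, so without dog 1 or 3 it was not detected and had no call.

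Among 11 ADAMTS and ADAMTSL genes, whose products act on or bind microfibrils, 5 were above, 3 below and 3 neither. ADAMTS6 and ADAMTSL1 both stood at 3.56, with SDs of 0.47 and 0.31, and ADAMTS17 at 2.73 ± 0.80. ADAMTSL2 was below at -2.86 ± 0.44 and THSD4 at -3.53 ± 0.50. THSD4 had 4, 0, 5 and 0 reads in dogs 1 to 4 and was likewise not detected without dog 1 or 3.

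All 7 measured genes of fibrillin processing and O-glycosylation were above. FURIN, the protease that cleaves profibrillin, stood at 4.53 ± 0.20, and the O-glucosyltransferases POGLUT3 and POGLUT2 at 3.36 ± 0.28 and 2.66 ± 0.81. B3GLCT and POFUT2, which add a disaccharide to thrombospondin repeats, stood at 1.58 ± 0.22 and 1.52 ± 0.61. B3GLCT lost its call without dog 1 (1.30) or 4 (1.26), and POFUT2 without dog 1 (1.27), 2 (1.26) or 4 (1.04).

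Of 11 genes of RGD-binding integrins and the elastin receptor complex 8 were above, 1 below and 2 neither. Receptor chains for fibronectin and fibrillin were prominent: ITGA5, ITGAV and ITGB1 stood at 7.91 ± 0.53, 7.64 ± 0.14 and 6.99 ± 0.52. ITGB6 was below at -3.10 ± 0.60. ITGA8 did not pass at -1.37 ± 1.07, and was below without dog 4 (-1.94).

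Of 10 measured genes of elastin-degrading proteases 4 were above, 3 below and 3 not detected. The gelatinase MMP2 stood at 7.40 ± 0.83, the membrane protease MMP14 at 6.90 ± 0.35 and cathepsin B (CTSB) at 4.55 ± 0.17. Neutrophil elastase (ELANE) was below at -2.98 ± 0.88 and MMP9 at -3.00 ± 0.73. MMP7 and CELA1 had 0 reads in all dogs, which allows up to 0.0489 CPM (reads per 1000000) over the 61335851 reads, for counting error only.

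Of 9 measured elastase inhibitors 5 were above, 2 below and 2 not detected. TIMP2 stood at 3.15 ± 0.31, SERPINB1 at 3.12 ± 0.26 and TIMP1 at 3.08 ± 0.75. TIMP4 was below at -2.90 ± 0.79 and elafin (PI3) at -2.71 ± 0.84, and SLPI had 0 reads in all dogs.

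**Figure D4:**
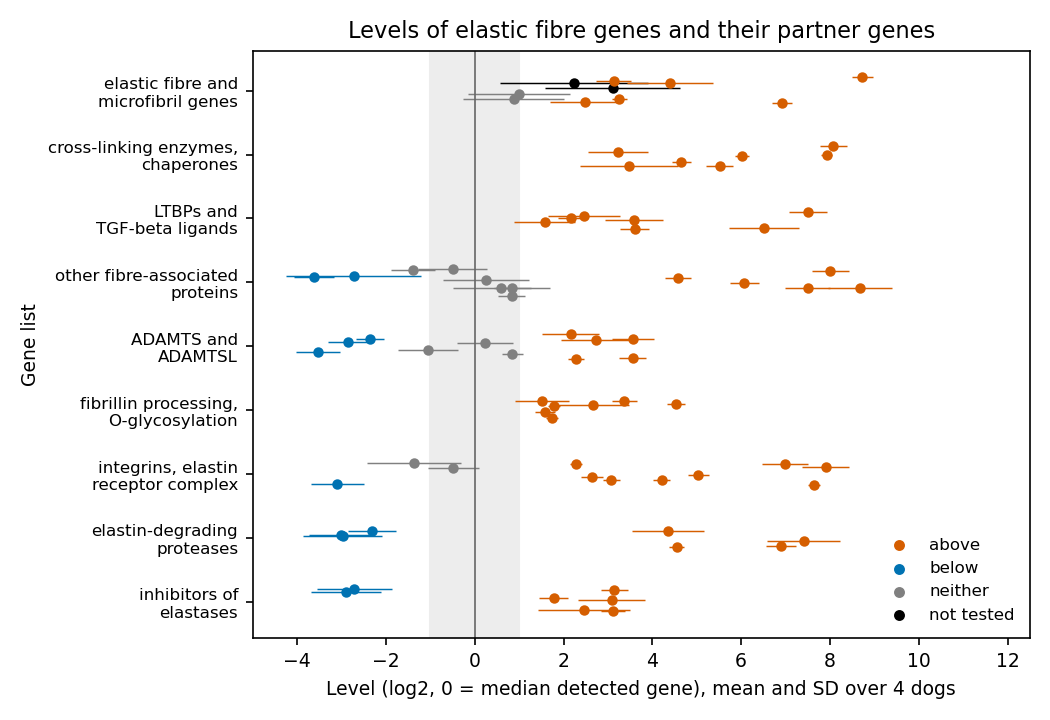
Mean level with SD over 4 dogs of the 10 elastic fibre and microfibril genes (top row) and of the 70 detected genes of 8 related lists, in log2 units relative to the median detected gene. Orange genes were above by the test, blue below, grey neither, and ELN and FBN2 in black were not tested. The grey band is the distance of 1 log2 unit, and every detected gene of the cross-linking, TGF-beta and fibrillin-processing lists lies to its right.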

How the data were processed

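The deposited file holds log2 values of 4 libraries, transformed by the authors with a variance-stabilizing transformation, as the name of the deposited file states. Per the labels' protocols, the kit was stranded, removed ribosomal RNA and took 10 ng of RNA. FastQC 0.12.1, Trimmomatic 0.39, STAR 2.7.11a, DESeq2 and the build CanFam3.1 are named in the submitters' processing notes. Counter and strand setting were not given in the sources used here. Antisense reads therefore cannot be told apart. Columns were matched to samples by dog number, and 0 columns were unused.

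The transformation was inverted from the value of 0 reads, and 100% of non-zero values came out as whole reads within 0.01. Genes with reads in at least 2 libraries counted as detected. A level is the log2 value minus the library median over detected genes. It was tested with limma 3.58.1 (R 4.3.3, intercept only, trended prior, distance 1, adjusted p threshold 0.05). Variability was tested as variance over the prior variance. Both were tested on simulated data. The members and lists were chosen with earlier results of these data known. Named genes were all 10 members and, per list, the 3 highest and 2 lowest detected genes and any with an SD above 1.5 log2 units, and the 5 nearest profiles to ELN and to FBN2. Of 91 list entries 11 matched no symbol and are not analysed here. KDELC1, KDELC2, B3GALTL and ADAMTSL6 are older names of measured genes. Replicates are separate dogs, per the labels' library names. Where a gene had several rows, the highest was used. Alternatives covered the reference set, scale, filters, distance, prior and each dog left out. RefSeq gene overlaps come from assembly UU_Cfam_GSD_1.0 and carry no coordinates here.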

Additional observations from a re-analysis of the deposited data

Results flagged for a closer look

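Of 50 named genes checked for a library standing apart from the other 3, 2 passed Dixon's 95% critical value for 4 samples, about what chance gives (1 in 20 groups), and across all detected genes 5.36% did. None of the 10 elastic fibre and microfibril genes passed it, the largest ratio being 0.701 for EFEMP1. The O-glucosyltransferase gene POGLUT2 stood apart in dog 4 with a ratio of 0.855, at 798, 762, 678 and 2292 normalized reads in dogs 1 to 4. The elastase inhibitor gene PI3 stood apart in dog 3 with a ratio of 0.881, at 24, 17, 0 and 6 reads in dogs 1 to 4.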

How the results depend on the processing

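The count of 6 tested members above the median detected gene and 0 below was the same when each dog was left out, with the median of genes read in every dog as reference, with quantile normalization, on the scale of log2 normalized reads plus 1, with other low-value filters and with a robust prior. It was 8 when the reference was the median of all genes in the table or the distance was 0, and 5 with a distance of 2, when EFEMP1 lost its call (adjusted p = 0.090, limma). The partner genes below numbered 11, but 0 with the median of all genes as reference, 3 when testing was limited to genes read in every dog, 21 when every gene was tested and 7 with a distance of 2. Partner genes above numbered 48, but 40 with the median of genes read in every dog as reference. With the median of all genes they numbered 59, and with a distance of 0 and of 2 they numbered 51 and 38. These settings change the reference, the genes tested or the limit itself. No member passed the variability test under any alternative run (smallest adjusted p 0.357 to 0.938). The SD of FBN1 was 0.49 after quantile normalization, against 0.23. The paralogue differences kept their sign under every alternative run. A length correction could not be run because no transcript lengths of the build were at hand, so the differences are reported without one. Leaving out a dog also moves the median detected gene, since detection is then judged on 3 libraries. Depth limits genes of a few reads, such as FBN3 and EMILIN3. Among the 10 members, whose lowest read number was 133, counting intervals overlapped in 5 of 30 pairs of neighbouring dogs. The same was not counted over all detected genes, so it sets the members apart from no other gene. No paired comparison of conditions was possible because the labels give 1 group.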

Other observations

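The following 4 genes of the related lists were chosen after their values were seen. Tenascin X (TNXB), a matrix glycoprotein whose loss is known to loosen connective tissue, had 173, 131, 452.5 and 75.9 normalized reads in dogs 1 to 4. Hemicentin-1 (HMCN1), a giant relative of the fibulins, had 200.4, 184.5, 665 and 91.1. Both were highest in dog 3 and lowest in dog 4. The protease inhibitor gene TIMP3 had 2045.8, 561, 1146.5 and 397, highest in dog 1 and lowest in dog 4. Cathepsin K (CTSK), a collagenolytic and elastolytic protease, had 5169.8, 4432, 3341 and 1436 and was likewise lowest in dog 4. Of the 70 detected partner genes 31.4% (22 genes) were lowest in dog 4, as these 4 were, beside 28.8% of all detected genes. Highest in dog 4 were 44.3% (31 genes), beside 36.8% of all detected genes. Lowest in dog 3 were 42.9% (30 genes), beside 31.1%.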
